A study of Arabidopsis thaliana with 9 samples.

Results

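The nuclear genes of the photosynthetic apparatus were examined in whole seedlings of *Arabidopsis thaliana*. The set holds 43 genes, taken by locus identifier, out of 25717 genes with values in the deposited table. It comprises 6 *LHCA* genes and 14 *LHCB* genes of the light-harvesting antennae, 4 *RBCS* genes of the Rubisco small subunit, 12 nuclear *PSA* genes of photosystem I and 7 nuclear *PSB* genes of photosystem II. All 43 passed the filter on low values, which left 19454 genes. Libraries came from intact seedlings 7 days old in the Col-0 background, grown under 8 h of light and 16 h of darkness, with 3 libraries for each of 3 genotypes. These were wild-type Col-0, *exg1-1*, a T-DNA insertion mutant of *EXG1* (AT3G08030) that the sample labels spell evg1-1, and *rlp44-3*, which carries a mutation in the receptor-like protein gene *RLP44* (AT3G49750). Each mutant was represented by a single allele.

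Light energy is collected by chlorophyll-binding LHC proteins and passed to the reaction centres of photosystem I and photosystem II, which drive electron transport from water to ferredoxin. The products of that transport feed the Calvin cycle, whose carbon-fixing enzyme Rubisco is built from a large subunit encoded in the chloroplast and small subunits encoded in the nucleus. The nuclear genes of these proteins are among the most highly expressed in green tissue, respond to light, the clock and sugar status, and are driven by factors such as the GLK proteins and restrained by PIF proteins in the dark.

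The deposited table holds fitted mean values on the scale of reads, so that each gene has 1 value per genotype and the 3 columns of a genotype are multiples of one another. No spread between replicates could be measured and no difference was tested. Values are given below as fitted CPM, the sum of the 3 columns of a genotype as CPM after TMM scaling to Col-0, and a gene was counted as different where 2 genotypes lay at least 1.2-fold apart. Intervals are exact 95% counting intervals, which cover counting error only and hold no biological variation. Column sums lay between 8364383 and 12971468 fitted reads per library.

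The labels were checked first on the mutated genes. *EXG1* stood at 103 fitted CPM for Col-0, 33.8 for *exg1-1* and 93.6 for *rlp44-3*. *RLP44* stood at 3.72 for Col-0, 3.01 for *exg1-1* and 0.032 for *rlp44-3*, where 0.358 fitted reads per library were left. Marker lists of other organs and cell types were then summed. The summed level of 8 shoot and mesophyll markers was 8528 for Col-0, 9070 for *exg1-1* and 8956 for *rlp44-3*, and that of 11 root markers was 3510, 3280 and 3694 in the same order. Of the shoot and mesophyll markers, 6 of 8 were higher in *exg1-1* and 2 of them by at least 1.2-fold, where 12.6% of all genes were. In *rlp44-3* all 8 were higher and none by at least 1.2-fold, where 8.4% of all genes were. Their median log2 fold changes were 0.10 and 0.08. Of the root markers, 9 of 11 were lower in *exg1-1* and 6 of them by at least 1.2-fold, where 16.6% of all genes were, with a median log2 fold change of -0.30. In *rlp44-3*, 7 of 11 were lower and 2 of them by at least 1.2-fold, where 10.8% of all genes were, with a median of -0.04. By any amount, 49.2% of all genes were higher in *exg1-1* and 49.9% in *rlp44-3*. The summed level over a list of 16 seed markers, 11 of which passed the filter, was 43.3 for Col-0, 10.8 for *exg1-1* and 7.30 for *rlp44-3*. The part of these differences in the values of the photosynthesis genes was not tested. In bulk seedlings, fewer cells of a type and less RNA per cell cannot be told apart.

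Of all fitted reads, the 43 genes took 15.77% for Col-0 (95% Wilson interval 15.76 to 15.79), 16.83% for *exg1-1* (16.81 to 16.84) and 17.04% for *rlp44-3* (17.03 to 17.05). The trimeric antenna genes *LHCB1* to *LHCB3* made up 40.9% of the reads of the set for Col-0, 42.1% for *exg1-1* and 41.3% for *rlp44-3*. The shares of the photosystem I subunits were 14.4%, 13.8% and 14.1%, and those of the photosystem II subunits 10.6%, 10.2% and 10.3%. *LHCA* genes kept 13.0%, 13.0% and 12.9%. The trimeric antenna thus took a slightly larger and the listed photosystem I and photosystem II subunits a slightly smaller part of the set in both mutants, and these shares do not depend on how the genotypes were scaled.

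Per kilobase of exon, the order of the levels was led in every genotype by *LHCB1.3*, *LHCB1.5*, *RBCS1A*, *LHCB1.1*, *LHCB1.2*, *LHCA4*, *LHCA1*, *LHCB3* and *PSBR*, in this order. *LHCB1.3* (AT1G29930) reached 15493 fitted CPM per kb for Col-0, 17144 for *exg1-1* and 16984 for *rlp44-3*. *PSBR* (AT1G79040), in ninth place, reached 4032, 4251 and 4243. At the other end stood *LHCA5*, *LHCA6* and *LHCB4.3*. *LHCB4.3* (AT2G40100) had 2.71 fitted CPM per kb for Col-0, 1.81 for *exg1-1* and 2.98 for *rlp44-3*, and was the only gene of the 43 below 100 fitted CPM in Col-0. Below the first 9 places ranks changed between genotypes. *LHCB2.1* went from place 19 in Col-0 to place 25 in *rlp44-3*, and *PSAL* from 24 to 19. Without a spread it cannot be said which of these genes differ.

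**Figure D1:**
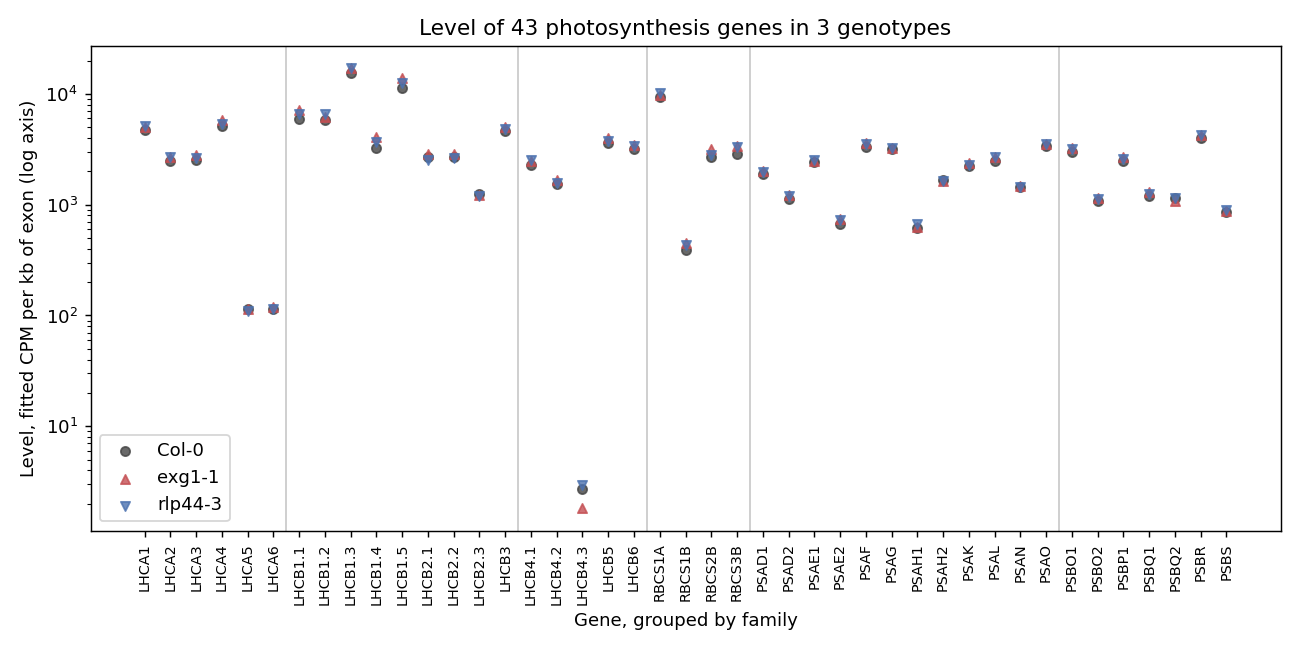
Level of each of the 43 photosynthesis genes in Col-0 (circles), *exg1-1* (upward triangles) and *rlp44-3* (downward triangles), in fitted CPM per kb of exon on a log axis, with vertical lines between families. *LHCB1.3* lies highest at 15493 in Col-0 and *LHCB4.3* lowest at 2.71, and the 3 genotypes nearly coincide for most genes.

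In *exg1-1*, 39 of 43 genes were higher than in Col-0 by any amount, against 49.2% of all genes tested. The median log2 fold change was 0.11, a 1.08-fold difference, against -0.0044 over all genes. Few of the differences were large. The genes at least 1.2-fold higher were *LHCB1.1*, *LHCB1.4* and *LHCB1.5*, which is 6.98% of the set against 12.6% of all genes. The only gene at least 1.2-fold lower was *LHCB4.3*, which is 2.33% against 16.6%. Among the 1448 genes outside the set with at least 100 fitted CPM in Col-0, 12.6% were that much higher and 7.04% that much lower. The count of 3 depends on the scaling, since under upper quartile scaling or library totals *LHCB1.4* alone stayed past 1.2-fold, and with the trend of the log2 ratio on level removed none did, *LHCB1.4* then lying at 0.25. Under upper quartile scaling and under library totals, 33 genes were higher and 10 lower.

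In *rlp44-3*, 38 of 43 genes were higher than in Col-0, against 49.9% of all genes, with a median log2 fold change of 0.07, or 1.05-fold. None reached 1.2-fold in either direction, where 8.4% of all genes exceeded that upwards and 10.8% downwards. Among the 1448 genes outside the set with at least 100 fitted CPM in Col-0, the shares were 1.86% and 4.01%. Values ran from -0.07 for *LHCB2.1* to 0.23 for *RBCS3B*. Both mutants were compared with the same Col-0 libraries, so the values of the 2 comparisons are not independent.

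Level went with the difference in both comparisons. Of the 43 genes, 42 had at least 100 fitted CPM in Col-0, and so had the 1448 genes outside the set. Among those 1448 genes, 58.1% were higher in *exg1-1* and 64.1% in *rlp44-3*, with medians of 0.05 and 0.03, where 90.7% and 88.4% of the 43 genes were higher. With the trend of the log2 ratio on level removed, 24 of 43 genes were higher in *exg1-1* and 23 in *rlp44-3*, and the medians became 0.0080 and 0.0045. The trend was fitted over all genes tested, with the 43 genes among them, so it can hold part of their own difference. What part of the excess goes with level was not tested.

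**Figure D2:**
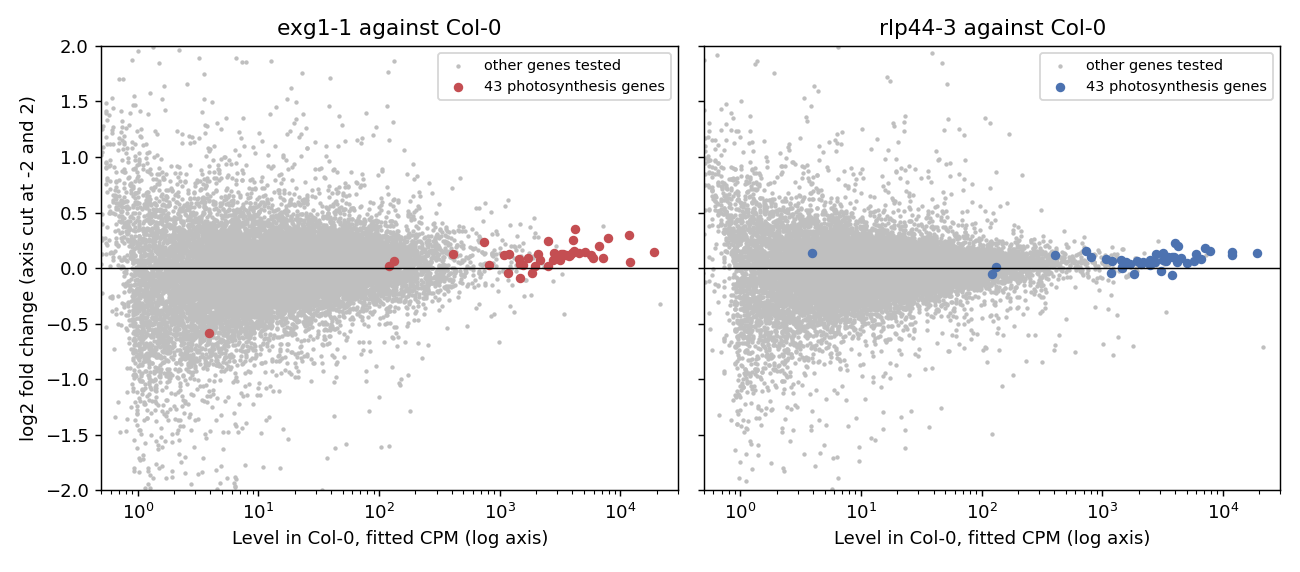
Log2 fold change against the level in Col-0 (fitted CPM, log axis) for *exg1-1* (left) and *rlp44-3* (right), with the 43 photosynthesis genes in colour and all other genes tested in grey and the vertical axis limited to -2 to 2. All coloured points but *LHCB4.3* lie at 100 fitted CPM or more, mostly between 0 and 0.35 in *exg1-1* and between -0.07 and 0.23 in *rlp44-3*.

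*LHCA1* to *LHCA4* form the antenna belt of photosystem I, whereas *LHCA5* and *LHCA6* link photosystem I to the chloroplast NADH dehydrogenase-like complex. All 6 genes were higher in *exg1-1*, with a median of 0.11, and 5 of 6 were higher in *rlp44-3*, with a median of 0.07. Of all genes tested, 49.2% and 49.9% were higher. Among the 1448 genes outside the set with at least 100 fitted CPM in Col-0, 58.1% and 64.1% were. With the trend of the log2 ratio on level removed, the *LHCA* medians became 0.01 and -0.01. *LHCA4* (AT3G47470), the most abundant of them, stood at 6604 fitted CPM for Col-0, 7564 for *exg1-1* and 6983 for *rlp44-3*. Its log2 fold change was 0.20 in *exg1-1* (0.19 to 0.20) and 0.08 in *rlp44-3* (0.07 to 0.09). It overlaps a gene on the other strand. *LHCA1* (AT3G54890) had 5974, 6370 and 6512 fitted CPM in the same order, and was the *LHCA* gene with the largest value in *rlp44-3*, at 0.12. For *LHCA3* the values were 0.16 and 0.05, and for *LHCA2* 0.12 and 0.10. *LHCA5* (AT1G45474) stood at 122 for Col-0, 123 for *exg1-1* and 117 for *rlp44-3*, and *LHCA6* (AT1G19150) at 132, 138 and 132. The intervals of *LHCA5* included 0, with -0.05 to 0.08 for *exg1-1* and -0.12 to 0.01 for *rlp44-3*. The sign of *LHCA5* in *exg1-1* turned under other scalings. With the level trend removed, that of *LHCA1* turned as well in *exg1-1*, and those of *LHCA3*, *LHCA4* and *LHCA6* in *rlp44-3*.

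*LHCB1*, *LHCB2* and *LHCB3* proteins form the trimers of the major antenna of photosystem II, and *LHCB2* is the form whose phosphorylation brings trimers to photosystem I in state transitions. The 5 *LHCB1* genes lie in a cluster of 3 on chromosome 1 (*LHCB1.1* to *LHCB1.3*) and a divergent pair on chromosome 2 (*LHCB1.4* and *LHCB1.5*). Over the aligned positions without gaps, their coding sequences are 95.6 to 96.4% identical within the cluster. They are 92.5% identical within the pair and 87.4 to 91.1% between cluster and pair. The last 90 bases of the coding sequences are shown to let the copies be told apart, with capitals where a copy differs from *LHCB1.1* (RefSeq, TAIR10.1).
LHCB1.1: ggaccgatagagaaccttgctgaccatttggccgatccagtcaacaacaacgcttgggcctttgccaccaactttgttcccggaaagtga
LHCB1.2: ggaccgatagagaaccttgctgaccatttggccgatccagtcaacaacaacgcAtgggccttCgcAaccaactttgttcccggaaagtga
LHCB1.3: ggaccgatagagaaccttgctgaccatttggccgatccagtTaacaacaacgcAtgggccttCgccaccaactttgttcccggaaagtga
LHCB1.4: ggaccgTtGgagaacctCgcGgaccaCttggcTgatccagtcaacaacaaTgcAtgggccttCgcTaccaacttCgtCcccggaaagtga
LHCB1.5: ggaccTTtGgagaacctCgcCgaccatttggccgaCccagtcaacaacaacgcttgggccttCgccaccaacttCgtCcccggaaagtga
*LHCB1.2* and *LHCB1.3* each differ from *LHCB1.1* at 3 of these 90 positions, *LHCB1.4* at 12 and *LHCB1.5* at 9. No window of 150 bases, the length of a read, was shared between the transcripts of any LHC genes. Assignment of reads to the wrong copy through sequencing errors was not tested, and how reads with several matches were handled is not given in the sources used here.

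In *exg1-1* the largest values of the set were those of *LHCB1* genes. *LHCB1.4* (AT2G34430) stood at 4221 fitted CPM for Col-0, 5391 for *exg1-1* and 4842 for *rlp44-3*, which is 1.28-fold higher in *exg1-1* and 1.15-fold in *rlp44-3*. Its log2 fold change was 0.35 (0.34 to 0.36) in *exg1-1* and 0.20 (0.19 to 0.21) in *rlp44-3*. *LHCB1.5* (AT2G34420) stood at 11794, 14506 and 13058, with log2 fold changes of 0.30 (0.29 to 0.30) and 0.15 (0.14 to 0.15), and overlaps 2 genes on the other strand. *LHCB1.1* (AT1G29920) stood at 7848, 9458 and 8706, with 0.27 (0.26 to 0.28) and 0.15 (0.14 to 0.16). These copies had the same order in each, lowest in Col-0 and highest in *exg1-1*. *LHCB1.3*, the most abundant gene of the set, stood at 19057, 21087 and 20890, with 0.15 and 0.13, and so differed little between the mutants. It too overlaps a gene on the other strand. *LHCB1.2* (AT1G29910) had the opposite order of the mutants, with 7128 for Col-0, 7601 for *exg1-1* and 8064 for *rlp44-3* and log2 fold changes of 0.09 (0.08 to 0.10) and 0.18 (0.17 to 0.19).

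Shares within the family need no scaling. *LHCB1.4* made up 8.43% of *LHCB1* reads for Col-0, 9.29% for *exg1-1* and 8.71% for *rlp44-3*. *LHCB1.5* made up 23.6%, 24.99% and 23.5%, *LHCB1.1* 15.7%, 16.3% and 15.7%, and *LHCB1.2* 14.2%, 13.1% and 14.5%. *LHCB1.3* made up 38.1%, 36.3% and 37.6%. In *exg1-1* the shares of *LHCB1.1*, *LHCB1.4* and *LHCB1.5* were larger and those of *LHCB1.2* and *LHCB1.3* smaller than in Col-0, while the shares in *rlp44-3* lay closer to Col-0. The ratio of *LHCB1* reads to those of all other *LHCB* genes was 1.75 for Col-0, 1.88 for *exg1-1* and 1.90 for *rlp44-3*.

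The 3 *LHCB2* genes did not follow *LHCB1* in *rlp44-3*. *LHCB2.1* (AT2G05100) stood at 3760 fitted CPM for Col-0, 4062 for *exg1-1* and 3591 for *rlp44-3*, with log2 fold changes of 0.11 (0.10 to 0.12) and -0.07 (-0.08 to -0.05). *LHCB2.2* (AT2G05070) stood at 3076.9, 3267 and 3014, and *LHCB2.3* (AT3G27690) at 1839, 1785 and 1768. In *rlp44-3* all 3 lay below Col-0, with a median of -0.06 and under each of the 4 scalings, while all 5 *LHCB1* genes lay above it. In *exg1-1* *LHCB2.3* alone was below Col-0, at -0.04, and it too overlaps a gene on the other strand. *LHCB3* (AT5G54270), the third kind of trimer subunit, stood at 5728, 6202 and 5976.

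**Figure D3:**
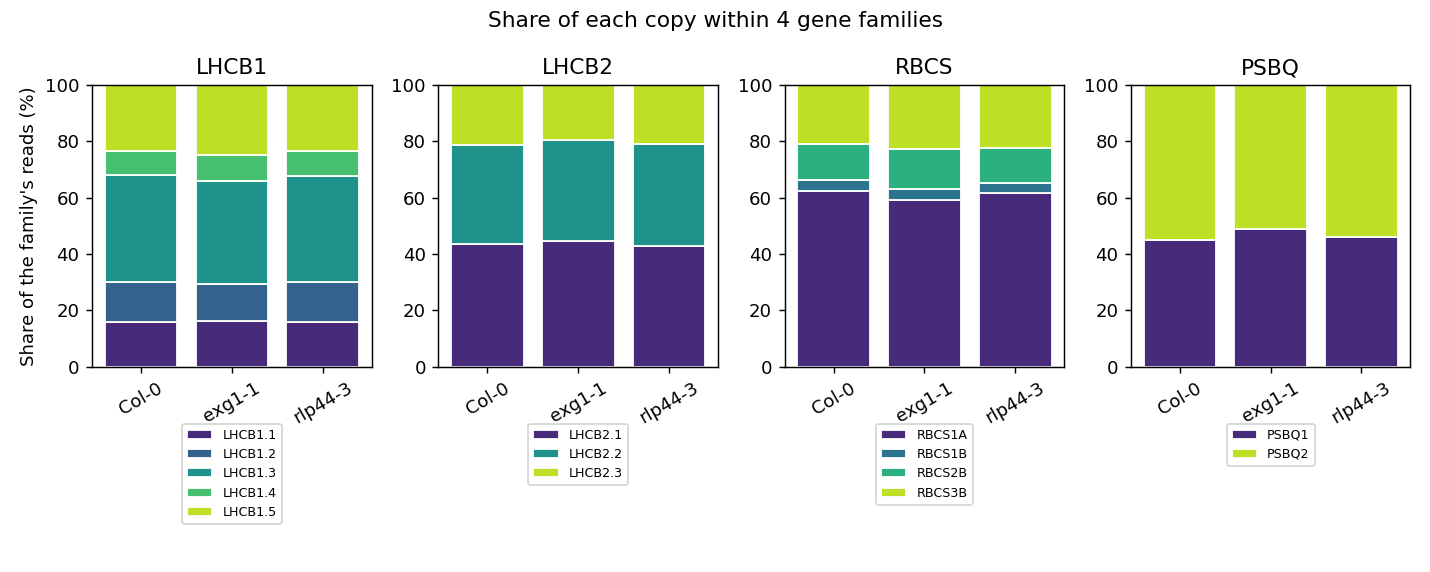
Share of each copy in the summed fitted reads (%) of the *LHCB1*, *LHCB2*, *RBCS* and *PSBQ* families in Col-0, *exg1-1* and *rlp44-3*, as stacked bars. *LHCB1.4* grows from 8.43% in Col-0 to 9.29% in *exg1-1*, *RBCS1A* shrinks from 62.3% to 59.0% and *PSBQ2* from 55.0% to 51.2%.

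The minor antenna proteins *LHCB4*, *LHCB5* and *LHCB6* sit as monomers between the trimers and the core of photosystem II. *LHCB5* (AT4G10340), the most abundant, stood at 5041 fitted CPM for Col-0, 5562 for *exg1-1* and 5201 for *rlp44-3*, with log2 fold changes of 0.14 and 0.05. *LHCB4.1*, *LHCB4.2* and *LHCB6* lay at 0.12 to 0.13 in *exg1-1*, and at 0.14, 0.04 and 0.10 in *rlp44-3*. *LHCB4.3* stood apart by its level. Its fitted reads per library numbered 35.8 for Col-0, 30.4 for *exg1-1* and 48.8 for *rlp44-3*, or 3.93, 2.62 and 4.31 fitted CPM. It was lowest in *exg1-1*, with a log2 fold change of -0.58 (-1.01 to -0.18) against Col-0, and 0.13 (-0.24 to 0.50) in *rlp44-3*. *LHCB4.3* made up 0.074% of *LHCB4* reads in Col-0, so its difference hardly touches the family's sum.

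The Rubisco small subunit comes from *RBCS1A* on chromosome 1 and the adjacent genes *RBCS1B*, *RBCS2B* and *RBCS3B* on chromosome 5. Over the aligned positions without gaps, the 3 B genes are 96.7 to 97.3% identical to each other and 90.4 to 90.6% to *RBCS1A*. The first 90 bases of the coding sequence, at the start of the chloroplast transit peptide, are shown with capitals where a copy differs from *RBCS1A*.
RBCS1A: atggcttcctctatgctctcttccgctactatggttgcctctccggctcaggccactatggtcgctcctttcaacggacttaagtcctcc
RBCS1B: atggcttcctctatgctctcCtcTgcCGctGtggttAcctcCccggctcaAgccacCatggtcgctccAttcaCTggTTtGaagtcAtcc
RBCS2B: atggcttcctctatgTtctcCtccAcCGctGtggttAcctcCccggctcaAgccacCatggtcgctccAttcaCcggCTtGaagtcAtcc
RBCS3B: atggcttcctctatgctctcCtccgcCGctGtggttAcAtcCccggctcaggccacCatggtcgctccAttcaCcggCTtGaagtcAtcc
*RBCS1B* and *RBCS2B* each differ at 16 of the 90 positions and *RBCS3B* at 14. *RBCS1B* and *RBCS3B* were the only genes of the 43 whose transcripts share windows of 150 bases, 81 in number, which is 4.64% of the windows of *RBCS1B* and 7.83% of those of *RBCS3B*.

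*RBCS1A* (AT1G67090) stood at 11958 fitted CPM for Col-0, 12390 for *exg1-1* and 12990 for *rlp44-3*. Its log2 fold change was 0.05 (0.04 to 0.06) in *exg1-1* and 0.12 (0.11 to 0.13) in *rlp44-3*. With library totals the value in *exg1-1* was 0.0010, and with the level trend removed it was -0.07. The B genes had larger values in *exg1-1*. *RBCS3B* (AT5G38410) stood at 4016, 4783 and 4704, with 0.25 (0.24 to 0.26) and 0.23 (0.22 to 0.24). *RBCS2B* (AT5G38420) stood at 2496, 2950 and 2630, with 0.24 (0.23 to 0.26) and 0.08 (0.06 to 0.09). *RBCS1B* (AT5G38430) stood at 735, 863 and 816, with 0.23 (0.21 to 0.26) and 0.15 (0.12 to 0.18). The B genes together made up 37.7% of *RBCS* reads for Col-0 (37.6 to 37.9, Wilson), 41.0% for *exg1-1* (40.8 to 41.1) and 38.6% for *rlp44-3* (38.4 to 38.7). The log2 fold changes of *RBCS2B* and *RBCS3B* differed by 0.15 in *rlp44-3* and by 0.01 in *exg1-1*. Without a spread between replicates it cannot be said whether these copies differ. The level per kilobase of *RBCS1B* rests on an annotated exon length of 1894 bases, and whether reads cover that length was not tested.

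The nuclear photosystem I subunits showed small values throughout. Their median was 0.08 in *exg1-1* and 0.06 in *rlp44-3*. In each mutant 11 of 12 were higher, where 49.2% and 49.9% of all genes were. Among the 1448 genes outside the set with at least 100 fitted CPM in Col-0, 58.1% and 64.1% were. With the trend of the log2 ratio on level removed, the medians became -0.02 and -0.0054. *PSAO* (AT1G08380), which with *PSAH* and *PSAL* forms the docking site for antenna trimers, was the most abundant per kilobase in Col-0. It stood at 2758 fitted CPM for Col-0, 2909 for *exg1-1* and 2873 for *rlp44-3*. *PSAF*, which binds plastocyanin, had 0.14 and 0.10, and *PSAL* 0.14 and 0.13. *PSAD1* and *PSAD2*, which help bind ferredoxin at the stromal side, had 0.07 and 0.12 in *exg1-1* and 0.06 and 0.08 in *rlp44-3*. *PSAE1* and *PSAE2*, of the same side, had 0.02 and 0.13 in *exg1-1* and 0.07 and 0.12 in *rlp44-3*. *PSAG*, *PSAK* and *PSAN* had 0.02, 0.09 and 0.03 in *exg1-1* and 0.03, 0.04 and 0.0021 in *rlp44-3*. *PSAH2* (AT1G52230) was the only photosystem I gene below Col-0 in both mutants, with 1174, 1138 and 1141 fitted CPM, a log2 fold change of -0.04 in each and a gene overlapping it on the other strand. Its copy *PSAH1* (AT3G16140) stood at 808, 825 and 865, and it too overlaps a gene on the other strand. The signs of *PSAE1*, *PSAG*, *PSAH1* and *PSAN* in *exg1-1*, and of *PSAN* in *rlp44-3*, turned under other scalings. With the level trend removed, those of *PSAD1*, *PSAK* and *PSAO* turned as well in *exg1-1*, and those of *PSAD1*, *PSAG*, *PSAK* and *PSAO* in *rlp44-3*.

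Among the photosystem II subunits, *PSBO*, *PSBP* and *PSBQ* form the lumenal shield of the oxygen-evolving complex, *PSBR* assists their binding, and *PSBS* senses lumen acidity in the dissipation of excess light. *PSBR*, the most abundant per kilobase, stood at 3161 fitted CPM for Col-0, 3332 for *exg1-1* and 3327 for *rlp44-3*. *PSBO1* (AT5G66570) had 0.13 and 0.09, *PSBO2* 0.08 and 0.07 and *PSBP1* 0.12 and 0.06. *PSBS* (AT1G44575) stood at 1560, 1594 and 1623, and its sign in *exg1-1* turned under other scalings. With the level trend removed, those of *PSBO2* and *PSBR* turned as well in *exg1-1*, and those of *PSBP1*, *PSBQ2*, *PSBR* and *PSBS* in *rlp44-3*. The *PSBQ* copies had values of opposite sign in *exg1-1*. *PSBQ1* (AT4G21280) stood at 1194, 1303 and 1250, and *PSBQ2* (AT4G05180) at 1458, 1368 and 1471. *PSBQ2* thus was lowest in *exg1-1*, at -0.09 (-0.11 to -0.07), where *PSBQ1* was highest, at 0.13 (0.11 to 0.15). *PSBQ2* made up 55.0% of *PSBQ* reads for Col-0 (54.6 to 55.3, Wilson), 51.2% for *exg1-1* (50.9 to 51.6) and 54.1% for *rlp44-3* (53.7 to 54.4).

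**Figure D4:**
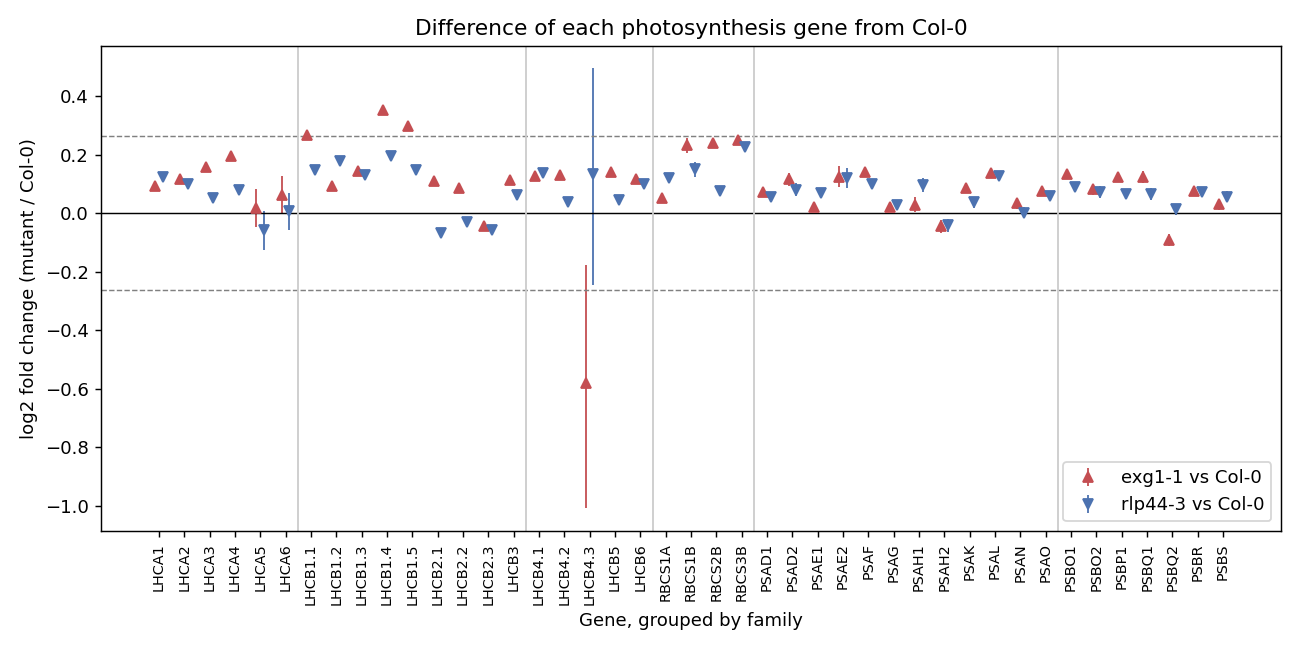
Log2 fold change of each gene against Col-0 in *exg1-1* (upward triangles) and *rlp44-3* (downward triangles), with 95% counting intervals as bars, dashed lines at 1.2-fold and vertical lines between families. *LHCB1.4*, *LHCB1.5* and *LHCB1.1* lie above the upper line in *exg1-1* and *LHCB4.3*, with its wide interval, below the lower one.

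The mutants were also set against each other, with the same mutant values as above. In *exg1-1*, 32 of 43 genes were higher than in *rlp44-3* by any amount, against 50.2% of all genes, with a median log2 fold change of 0.02. No gene was at least 1.2-fold higher, where 12.6% of all genes were, and *LHCB4.3* alone was at least 1.2-fold lower, at -0.72 (-1.11 to -0.33), where 15.4% of all genes were. This direction of the set was not stable, since 18 genes were higher under upper quartile scaling and 12 under library totals. The largest values were those of *LHCB2.1* at 0.18 (0.17 to 0.19), *RBCS2B* at 0.17 (0.15 to 0.18) and *LHCB1.4* at 0.16 (0.15 to 0.16). The lowest after *LHCB4.3* were *PSBQ2* at -0.10 (-0.12 to -0.09) and *LHCB1.2* at -0.09 (-0.09 to -0.08). The sign of these named genes did not turn under any of the 4 scalings.

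Other genes of the pathway lay near the set. Of 75 genes in 6 lists of other photosystem II subunits, electron transport and ATP synthase, the Calvin cycle, chlorophyll synthesis, LHC-like proteins, and LHC targeting and Rubisco assembly, 63 were higher in *exg1-1* and 59 in *rlp44-3*. That is 84% and 78.7% of them, against 49.2% and 49.9% of all genes. Past 1.2-fold, 4 lay higher and 2 lower in *exg1-1*, which is 5.33% and 2.67% against 12.6% and 16.6% of all genes. In *rlp44-3* it was 0 and 1, the latter 1.33%, against 8.4% and 10.8%. The medians were 0.11 and 0.06. Rubisco activase, *RCA*, which frees Rubisco from bound sugar phosphates, stood at 7179 fitted CPM for Col-0, 9350 for *exg1-1* and 7808 for *rlp44-3* and had the largest value of these lists in *exg1-1*, at 0.38 (0.37 to 0.39). *RPI3* was the lowest Calvin cycle gene in *exg1-1*, at -0.03, and like *RCA* it overlaps a gene on the other strand. In *rlp44-3* the Calvin cycle ran from -0.02 for *GAPA1* to 0.24 for *FBA2*, a plastid aldolase.

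The chlorophyll synthesis list ran in *exg1-1* from -0.28 for *PORA* to 0.28 for *CHLH*, a subunit of magnesium chelatase. In *rlp44-3* it ran from -0.61 for *PORA* to 0.21 for *HEMB1*. *PORA*, a protochlorophyllide reductase of etiolated seedlings, had only 2.25, 1.85 and 1.48 fitted CPM in Col-0, *exg1-1* and *rlp44-3*. *ELIP1*, a stress-induced LHC-like protein, stood at 13.9, 7.81 and 12.2 and was the lowest of its list in both mutants, at -0.83 (-1.06 to -0.61) and -0.20. *OHP2* was the highest LHC-like gene in *exg1-1*, at 0.15, and *ELIP2* in *rlp44-3*, at 0.25 (-0.08 to 0.57). *ELIP2* had only 4.99 fitted CPM in Col-0 and 5.92 in *rlp44-3*. Among the targeting and assembly genes *CPSRP43*, a chaperone that carries LHC proteins to the thylakoid, was highest in *exg1-1*, at 0.29, and *CPN20* lowest, at -0.12, while *CPN60B1* and *BSD2* were the extremes in *rlp44-3*, at 0.25 and -0.13. Electron transport genes ran from 0.01 for *FD2* to 0.24 for *PETE1* in *exg1-1*. In *rlp44-3* they ran from -0.12 (-0.28 to 0.04) for *PGRL1B* to 0.20 for *FD1*. The other photosystem II subunits ran from -0.02 for *PSB5KD* to 0.14 for *PSB27* in *exg1-1* and from -0.01 for *PSB5KD* to 0.14 for *PSB28* in *rlp44-3*.

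Of 12 regulators of photosynthesis genes, 9 were higher in *exg1-1*, with 3 of them past 1.2-fold, and 8 were lower in *rlp44-3*, with 3 past 1.2-fold. The 3 past 1.2-fold are 25% of the list in each case, against 12.6% of all genes higher in *exg1-1* and 10.8% lower in *rlp44-3*, and by any amount 49.2% and 49.9% of all genes were higher. The medians were 0.18 and -0.08. *SIGE*, a sigma factor of the plastid RNA polymerase, stood at 37.6 fitted CPM for Col-0, 54.3 for *exg1-1* and 29.9 for *rlp44-3*. Its log2 fold change between the mutants was 0.86 (0.75 to 0.97). *GLK1*, an activator of LHC genes, stood at 124, 114 and 88.7, and was the lowest regulator in both, at -0.11 in *exg1-1* and -0.48 in *rlp44-3*. *PIF1*, which restrains chlorophyll and LHC genes in the dark, was the highest in *rlp44-3*, at 0.21. The 5 morning clock genes were all higher in *exg1-1*, with a median of 0.20, from *PRR9* at 0.09 to *PRR7* at 0.47, and 4 of 5 were lower in *rlp44-3*, with a median of -0.14, from *LHY* at -0.37 to *PRR7* at 0.14. All 6 evening clock genes were higher in both mutants, with medians of 0.20 and 0.12 and *PRR5* highest, at 0.44 in each. Most regulators and morning clock genes thus lay below Col-0 in *rlp44-3*, with 4 of the 12 regulators and *PRR7* above it, where most of the photosynthesis genes lay slightly above. Their part in the values of the photosynthesis genes was not tested.

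The 250 bases before the annotated start of each of the 43 genes were searched for 8 light and clock motifs on both strands, and 27561 genes of the RefSeq annotation were searched in the same way. The G-box (CACGTG) was present before 20.9% of the 43 genes and 6.46% of all genes, the GLK element (CCAATC) before 25.6% and 10.2%, and the light-response motif SORLIP1 (GCCAC) before 44.2% and 15.4%. The I-box (GATAAG) was present before 23.3% and 12.3%, the GT1 core (GGTTAA) before 18.6% and 14.6%, the CCA1 binding site in its A form (AAAAATCT) before 11.6% and 6.69% and in its C form (AACAATCT) before 2.33% and 1.82%, and the evening element (AAAATATCT) before 2.33% and 2.36%. SORLIP1 shares bases with the G-box in 8 matches before 5 genes. No match was found in the windows of 9 genes. Of the 11 genes with a GLK element, 10 were antenna genes, 3 of *LHCA* and 7 of *LHCB*.

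Windows are printed for the genes that were at least 1.2-fold apart in *exg1-1*, for *LHCB1.2*, the *LHCB1* copy with the smallest value there, and for *PSBQ2*, with capitals for all motif matches (RefSeq, TAIR10.1, sequence of the gene's own strand).
LHCB1.1, chr1:10475970-10476219, minus strand: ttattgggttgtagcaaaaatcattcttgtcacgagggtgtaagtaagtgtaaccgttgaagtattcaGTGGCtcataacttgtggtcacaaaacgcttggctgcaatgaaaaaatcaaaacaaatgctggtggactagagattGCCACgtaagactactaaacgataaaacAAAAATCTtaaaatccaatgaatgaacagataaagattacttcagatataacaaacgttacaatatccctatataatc
LHCB1.2, chr1:10473503-10473752, minus strand: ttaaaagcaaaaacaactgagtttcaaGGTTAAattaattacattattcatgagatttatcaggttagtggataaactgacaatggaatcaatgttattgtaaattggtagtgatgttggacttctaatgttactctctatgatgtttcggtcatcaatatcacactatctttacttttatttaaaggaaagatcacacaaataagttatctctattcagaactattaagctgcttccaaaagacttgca
LHCB1.4, chr2:14524357-14524606, plus strand: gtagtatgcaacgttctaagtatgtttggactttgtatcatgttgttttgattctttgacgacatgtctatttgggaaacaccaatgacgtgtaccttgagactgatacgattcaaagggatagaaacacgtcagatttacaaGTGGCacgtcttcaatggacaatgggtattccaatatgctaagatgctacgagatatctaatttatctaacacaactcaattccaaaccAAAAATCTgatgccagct
LHCB1.5, chr2:14523569-14523818, minus strand: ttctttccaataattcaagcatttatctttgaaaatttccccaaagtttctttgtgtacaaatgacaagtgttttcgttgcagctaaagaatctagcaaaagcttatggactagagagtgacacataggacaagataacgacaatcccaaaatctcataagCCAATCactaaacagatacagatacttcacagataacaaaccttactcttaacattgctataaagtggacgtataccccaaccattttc
LHCB4.3, chr2:16745378-16745627, plus strand: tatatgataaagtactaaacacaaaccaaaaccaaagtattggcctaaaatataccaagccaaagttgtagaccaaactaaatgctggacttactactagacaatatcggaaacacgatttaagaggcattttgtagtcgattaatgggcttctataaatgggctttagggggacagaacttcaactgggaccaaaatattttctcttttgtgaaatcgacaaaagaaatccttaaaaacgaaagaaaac
PSBQ2, chr4:2673244-2673493, minus strand: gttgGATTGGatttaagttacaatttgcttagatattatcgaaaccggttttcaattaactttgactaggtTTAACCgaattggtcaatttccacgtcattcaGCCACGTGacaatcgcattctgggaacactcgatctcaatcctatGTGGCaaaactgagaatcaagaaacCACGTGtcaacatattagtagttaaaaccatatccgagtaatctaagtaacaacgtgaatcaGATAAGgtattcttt
*LHCB1.1* and *LHCB1.4* both hold a CCA1 site and SORLIP1. The same CCA1 form stands before *LHCA4*, *PSAN* and *PSAO*, whose log2 fold changes in *exg1-1* were 0.20, 0.03 and 0.08, and SORLIP1 stands before 19 genes, among them *PSAG* at 0.02 and *PSAH2* at -0.04. *LHCB1.5* holds a GLK element and *LHCB1.2* a GT1 core, and *LHCB1.3*, at 0.15 in *exg1-1*, holds both. A GLK element also stands before *LHCB2.3*, at -0.04, and a GT1 core before *RBCS3B*, at 0.25. *PSBQ2* holds 7 matches, including 2 of the G-box, and was below Col-0 in *exg1-1*. Its copy *PSBQ1* holds 6, also including 2 of the G-box, and was above Col-0 in *exg1-1*, at 0.13. *LHCB4.3* holds none, and neither does *PSAL*, at 0.14 in *exg1-1*. A match is a run of letters and was not shown to be bound.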

How the data were processed

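Messenger RNA of 9 libraries, 3 per genotype, was sequenced by the authors in paired reads of 150 bases after poly(A) selection and directional library preparation. The authors trimmed with fastp, mapped to TAIR10 with HISAT2, counted with HTSeq-count and used DESeq2. For versions of these tools, strand setting and reads with several matches, nothing is given in the sources used here. The deposited table, named as raw counts, has 33341 rows, 25717 of them with values, which are fitted read values. None was whole within 1e-06 and the 3 columns of a genotype were proportional within 6e-15, so no count model could be fitted. A further 3 columns that match no sample used here were left out.

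The columns of a genotype were summed. Genes were kept at 0.908 CPM (10 reads in a library of median size) in all libraries of any genotype and a sum of at least 15. TMM scaling trimmed 30% of log ratios and 5% of levels at each end, with no pseudocount, and gave effective library sizes that were higher than that of Col-0 by 0.34 on the log2 scale for *exg1-1* and 0.31 for *rlp44-3*. Overlap with genes on the other strand, found for 16 of the 43 genes, leaves their values uncertain. They are *LHCA4*, *LHCA5*, *LHCB1.3*, *LHCB1.5*, *LHCB2.3*, *LHCB3*, *LHCB4.2*, *LHCB6*, *PSAE1*, *PSAE2*, *PSAG*, *PSAH1*, *PSAH2*, *PSAN*, *PSBP1* and *PSBR*. Names, lengths and sequences came from RefSeq TAIR10.1, matched by locus for 43 of 43 genes, and coordinates are those of that build. Scaling was tested on simulated data in which 200 of 19454 genes were changed, fewer than lay past 1.2-fold in the data. Of those with at least 50 reads, 96.5% (*exg1-1*) and 97.1% (*rlp44-3*) came back within 0.25 of the simulated log2 value. The scale was off by 0.00047 and -0.00071. The tolerance of 0.25 exceeds the median differences of the 43 genes, so recovery of single differences of that size was not tested. Members and lists were chosen with earlier results of these data known. All 43 genes could be named, with full values for the 3 largest rises and falls per comparison, the paralogs that differ most and the most abundant of each family. Of other lists, the extremes and any gene past 1.5-fold could be named. Calculations used Python 3.11.15, numpy 2.4.6, pandas 2.3.3, scipy 1.17.1, statsmodels 0.14.6, Biopython 1.88 and matplotlib 3.10.9.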

Additional observations from a re-analysis of the deposited data

How the results depend on the processing

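Of the alternatives, 10 could be run. *LHCB1.1*, *LHCB1.4*, *LHCB1.5* and *LHCB4.3* kept their sign in *exg1-1* under all that give single genes. Over the 4 scalings, 6 of 43 genes changed sign in *exg1-1*, 1 in *rlp44-3* and 20 between the mutants. The median log2 fold change of the 43 genes in *exg1-1* became 0.069 with upper quartile scaling, 0.065 with library totals, 0.14 without a filter, 0.0080 with the level trend removed and 0.10 with near-identical copies summed. In *rlp44-3* it became 0.051 with the GC trend removed and 0.0045 with the level trend removed. Between the mutants it became -0.016 with upper quartile scaling, -0.037 with library totals, 0.039 without a filter, 0.051 with the GC trend removed and -0.014 with the level trend removed. The number of genes at least 1.2-fold higher in *exg1-1* was 1 with upper quartile scaling, library totals or summed copies, 5 without a filter, and 0 with the level trend removed or at 1.5-fold, where the number lower was also 0. With the GC trend removed, 1 gene was at least 1.2-fold higher in *exg1-1* than in *rlp44-3*. Genes higher by any amount numbered 24 in *exg1-1* and 23 in *rlp44-3* with the level trend removed. Between the mutants they numbered 18 with upper quartile scaling, 12 with library totals and 19 with the level trend removed. Apart from the 1.5-fold threshold and the summing of copies, which follow from their construction, the cause was not tested. RLE scaling, a scale set without photosynthesis and organelle genes, and 10 reads in every library moved none of these summaries past the limits used. *LHCB1.4* ranged from 0.25 to 0.38 in *exg1-1*. As a second background, chosen after the data were seen, genes at 100 fitted CPM or more were used. No paired analysis was possible because the 3 columns of a genotype are multiples of one another. For the same reason the omission of each replicate, a replicate block and the planned count models were not run.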
